A study of Mus musculus with 47 samples.

Results

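The p65 subunit of NF-κB was removed from Raw264.7 cells, a mouse macrophage line, and the transcriptome of the p65 KO cells after LPS was set against that of p65 KO cells carrying WT p65, also after LPS. These are 2 of the 47 samples of the series, 1 library a side, and all 22863 genes of the deposited table that holds both libraries were compared. The KO was made with a lentiviral guide RNA, and WT p65 or the K122R mutant, in which an acetylated lysine is replaced by arginine, was then put back into KO cells to ask what acetylation of p65 does. The p65 KO cells of the ChIP assay carried an empty vector; for RNA the labels name only p65 KO. Every Raw264.7 library used here, the K122R library included, was treated with LPS, and no dose or time is given for these cells. Another 2 libraries, from wild-type bone marrow-derived macrophages untreated and after LPS, were used only to list LPS-induced genes. Whether each line was 1 clone or a pool is not stated. The header of the WT p65 column says only WT and LPS, so from the header alone rescued cells and cells that were never edited cannot be told apart. The labels also give bone marrow as the source and C57BL/6 as the strain, although the cell type is Raw264.7.

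The 5 Rel proteins form NF-κB dimers, and in resting macrophages IκB proteins keep them in the cytoplasm. LPS, a bacterial cell wall component, is sensed by TLR4 with CD14, and the MyD88 and TRIF adaptors lead to kinases that destroy IκB. The p65 protein, encoded by Rela, carries a strong transactivation domain and drives cytokine, chemokine and survival genes, and also the genes of its own inhibitors. RelB and c-Rel carry transactivation domains too, whereas p50 and p52, the products of Nfkb1 and Nfkb2, do not.

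The guide target is shown first because it decides what the Rela reads can say about the KO. It lies at chr19:5638613-5638632 (GRCm38, plus strand), inside exon 3 of the 11 exons of Rela, and was found 1 time on chromosome 19. The 20 bases of the target are in lower case and the PAM, which Cas9 requires beside its target, is in capitals.
Rela target: cgattccgctataaatgcgaGGG
Cas9 cuts 3 bases before the PAM, which here falls after base 113 of the coding sequence, in codon 38 of 549. A small insertion or deletion there can end the protein early but need not remove the RNA, so the read value of Rela does not check the KO. The cloning primers of the added p65 were also compared with mouse Rela. The forward primer, from its start codon, differed from the mouse coding sequence at 2 of 18 bases and the reverse primer at 1 of 18, and the species of the added p65 is not stated. How many reads of the added p65 were counted under Rela was not tested.

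Rela, at chr19:5637440-5648131 in the deposited table, had a normalised read value of 778 in p65 KO (765 reads), 1574 in WT p65 (1601 reads) and 5963 in K122R (5850 reads). A normalised read value is a whole number of reads times 1 constant per library, and the K122R value comes from a second table, scaled on its own, in which the WT p65 reads of all 21494 shared genes are those of the first. The p65 KO library was the lowest of the 3 and K122R the highest, and Rela RNA was still present in p65 KO. Here and below, p65 KO and K122R are both set against the same WT p65 library, so a low or high value in that library moves both differences together, and the order of the 3 libraries is given as a description. The log2 difference, p65 KO minus WT p65 on the log2(value + 1) scale, was -1.02, with 95% limits of -1.14 to -0.89, and -0.99 with edgeR's TMM factors, which is under 2-fold. These limits (Clopper-Pearson, from the reads) cover counting error only, and the reads carry no molecular identifiers. In bulk RNA, fewer cells with a transcript and less of it per cell cannot be told apart. With 1 library a side no difference has a replicate check, and none is given a p-value.

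The libraries held 15127110 reads on genes for p65 KO, 15665382 for WT p65 and 16653841 for K122R. Of the genes, 13451 reached an average of 10 over p65 KO and WT p65 and were compared, and the other 9412 were not. A gene was called when the 2 libraries differed by at least 2-fold. In p65 KO, 304 genes were higher (2.26% of those compared) and 286 were lower (2.13%), and the median log2 difference was -0.02. Differences stayed under 1.2-fold for 61.3% of genes. The 25th and 75th percentiles were -0.20 and 0.19, so most of the transcriptome had nearly the same value in both libraries. Called genes were mostly low in reads: of the 10556 genes averaging at least 50, 85 were called higher (0.805%) and 57 lower (0.54%). Protein-coding genes made up 83.1% of the genes compared, 70.7% of those called higher and 49.0% of those called lower.

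**Figure D1:**
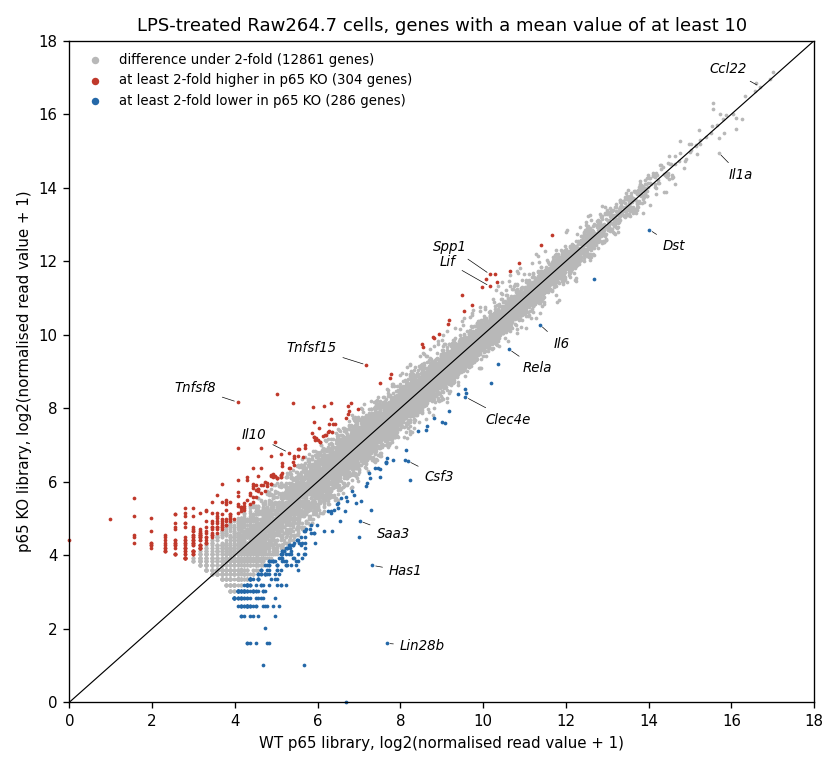
Each point is 1 of 13451 genes, with log2(normalised read value + 1) in the WT p65 library on the x axis and in the p65 KO library on the y axis; red marks the 304 genes at least 2-fold higher and blue the 286 at least 2-fold lower in p65 KO. Most genes lie along the line of equal values, Rela, Il6, Csf3, Saa3 and Clec4e lie below it, and Tnfsf8, Tnfsf15, Il10, Lif and Spp1 above it.

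None of the other 4 Rel genes was called, near the 2.26% and 2.13% of all genes called higher and lower. Rel, which encodes c-Rel, had values of 2020 in p65 KO, 2733 in WT p65 and 2328 in K122R, which is a difference of -0.44 between the first 2 (limits -0.52 to -0.35). Nfkb1 had 12442, 15093 and 17427, with a difference of -0.28. Both were lowest in p65 KO, whereas Relb was level with WT p65, at 336 against 332. The 5 subunits had a median difference of -0.28, beside -0.02 over all genes compared.

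Of the inhibitors and feedback genes of NF-κB, many of which are its own targets, 0 of 15 were called in either direction, which at 2.26% and 2.13% of all genes called is near the background, and the median difference was 0.04. Nfkbia encodes IκBα, the inhibitor that is resynthesised after each round of activation. Its value was 14909 in p65 KO, 14401 in WT p65 and 18601 in K122R, a difference of 0.05. Tnfaip3 encodes A20, which removes ubiquitin chains from the signalling complex. It had 2881, 4783 and 6855, a difference of -0.73 (limits -0.80 to -0.66), and its binding partner Tnip1 had 2947, 4039 and 4701, a difference of -0.45. These were the lowest of the list, and both ran in the order p65 KO, WT p65, K122R. At the other end stood Nfkbie, which encodes IκBε, with a difference of 0.39.

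Of the 24 receptors, adaptors and kinases upstream of NF-κB, 0 were called, near the 2.26% and 2.13% of all genes called higher and lower. The median was -0.08. Of the LPS receptor genes, Tlr4 and Cd14 had higher values in p65 KO, with 265 against 172 for Tlr4, a difference of 0.62, and 11274 against 7852 for Cd14, a difference of 0.52. Ly96, which encodes the LPS-binding partner MD-2 of TLR4, had 193 against 213, a difference of -0.14. Irak3, an inhibitory kinase of the TLR pathway, was lowest at 163 against 309, a difference of -0.92 (limits -1.21 to -0.64). Ikbke, a kinase gene that LPS induces, had 4209 against 6094, a difference of -0.53.

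Cytokines differed in both directions. Of 25 compared, 5 were called higher and 2 lower, beside 2.26% and 2.13% of all genes, with a median of 0.05. Il6, the acute-phase cytokine, had 1234 in p65 KO, 2648 in WT p65 and 4402 in K122R. Csf3, which encodes the granulocyte growth factor G-CSF, had 93.6, 289 and 927. For both genes p65 KO was the lowest library and K122R the highest. The differences from WT p65 were -1.10 for Il6 (1213 against 2694 reads) and -1.62 (limits -1.98 to -1.28) for Csf3.

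The interleukin 1 genes were among the most read genes of the list and were below the 2-fold rule. Il1a had 31653, 52940 and 49270, a difference of -0.74, and Il1b had 46036, 57913 and 54264, a difference of -0.33. In both the p65 KO library stood apart from the other two, which were close to each other. The subunits of IL-27 had lower values in p65 KO too, with differences of -0.46 for Il27 and -0.56 for Ebi3. Tnf, a standard p65 target, was at 19940, 22167 and 29827, a difference of -0.15. Csf2, which encodes GM-CSF, had 1075 and 1506 in p65 KO and WT p65, but only 281 in K122R.

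The 5 cytokine genes called higher in p65 KO were Tnfsf15, Il10, Spp1, Lif and Il1rn. Il10 and Il1rn encode anti-inflammatory proteins, the latter the antagonist of the IL-1 receptor. Il10 had 110 in p65 KO, 38.3 in WT p65 and 101 in K122R, a difference of 1.49 (limits 0.98 to 2.09). Il1rn had 5603, 2695 and 13743, a difference of 1.06 (limits 0.99 to 1.12). Tnfsf15, a TNF family ligand, had 578, 144 and 601 (limits of the log2 difference 1.74 to 2.28). In these genes WT p65 was the lowest library, and p65 KO and K122R were both above it. The same order held for Spp1, which encodes osteopontin, with 3198, 1145 and 3527, and for Lif, a cytokine of the IL-6 family, with 2545, 1146 and 3698.

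Chemokine genes had mostly higher values in p65 KO: 13 of 17 were above WT p65 and the median was 0.33. For comparison, medians were 0.26 for ribosomal protein genes, 0.22 for glycolysis and 0.12 for housekeeping genes. Sterol synthesis and cell cycle genes had -0.18 and -0.22. At 2-fold 0 of the 17 were called higher and 1 lower, beside 2.26% and 2.13% of all genes. At 1.2-fold, which 19.3% of all genes passed upward and 19.4% downward, 10 of the 17 were higher and 1 was lower. The monocyte attractants Ccl2, Ccl7 and Ccl9 had the largest positive differences. Ccl2 had 3248 in p65 KO, 1824 in WT p65 and 1350 in K122R, a difference of 0.83 (limits 0.75 to 0.92). Ccl7 had 499, 262 and 169, a difference of 0.93, and Ccl9 had 80485, 48022 and 78801, a difference of 0.75. K122R was below WT p65 for the first 2 and near p65 KO for Ccl9. Ccl5 had 48592 against 38277, a difference of 0.34, and Cxcl10, an interferon-induced attractant of T cells, had 4024 against 4357, a difference of -0.11. Ccl17, a ligand of CCR4, was the 1 member called lower, with 45.8 in p65 KO and 93.4 in WT p65 and a difference of -1.01 (limits -1.57 to -0.50), which no longer met the 2-fold rule when the libraries were scaled by edgeR's TMM factors (-0.99). Cxcl1 and Cxcl3 had at most 5 reads in either library.

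Latent super-enhancers are enhancer clusters that appear only after a stimulus, and 8 cytokine and chemokine genes whose enhancers the study assayed or lists primers for, some of them named at such elements, were followed as a list, which overlaps the 2 lists above and which the study chose from data of this series. None of the 8 was called, which at 2.26% and 2.13% of all genes called is near the background. Of the 8, 4 were above and 4 below WT p65, and the median was -0.03. Il1a, Il27, Il1b and Cxcl10 had the negative differences and Ccl7, Ccl2, Ccl5 and Ccl22 the positive ones. Ccl22 was nearly level, at 110133 in p65 KO and 105517 in WT p65.

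**Figure D2:**
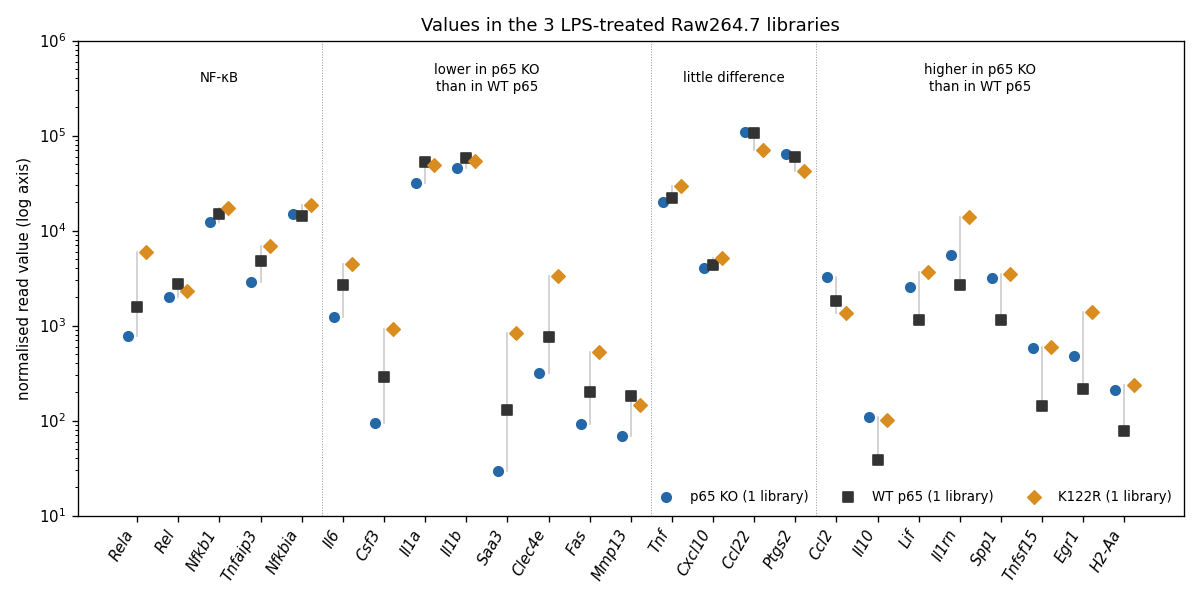
Normalised read values on a log axis for 25 genes in the p65 KO (circle), WT p65 (square) and K122R (diamond) libraries, 1 library each, with no error bar because there are no replicates; K122R values come from a table with its own scaling. Rela, Il6, Csf3, Saa3, Clec4e and Fas run from p65 KO through WT p65 to K122R. For Il1a, Il1b and Mmp13, also lower in p65 KO, K122R is below WT p65. For Il10, Lif, Il1rn, Spp1, Tnfsf15, Egr1 and H2-Aa WT p65 is the lowest library.

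Secreted effectors and enzymes of inflammation had a median of -0.18, and 2 of 21 were called higher and 3 lower, beside 2.26% and 2.13% of all genes. Saa3, an acute-phase protein gene, had 29.5 in p65 KO, 129 in WT p65 and 840 in K122R, a difference of -2.09 (limits -2.76 to -1.54). Mmp13, a collagenase, had 69.2, 181 and 146, a difference of -1.37. The third, Arg1, had 6 reads in p65 KO and 17 in WT p65, and its limits reached from -3.08 to -0.04. The 2 called higher were the tissue factor gene F3, with 74.3 against 34.4, and the gelatinase gene Mmp9, with 60 against 28.5.

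Of the effectors under the 2-fold rule, several, chosen after their values were seen, are given with all 3 libraries. Sod2, the mitochondrial superoxide dismutase, had 1403 in p65 KO, 2276 in WT p65 and 4131 in K122R, a difference of -0.70. Cfb, complement factor B, had 1132, 1811 and 5194, a difference of -0.68. Lcn2, which binds bacterial siderophores, had 104, 185 and 236, a difference of -0.83. Acod1, which makes itaconate, had 41945, 53204 and 110816, a difference of -0.34. These 4 were lowest in p65 KO and highest in K122R, whereas Mmp14, a membrane metalloproteinase, had 205, 301 and 160. Nos2, the inducible nitric oxide synthase, had 3921 in p65 KO, 3356 in WT p65 and 9889 in K122R, a difference of 0.22, and Ptgs2, which encodes COX-2, had 64132, 59964 and 42035, a difference of 0.10. Plau, a secreted protease gene, had 931, 509 and 3065, a difference of 0.87 (limits 0.71 to 1.03).

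Of 18 surface and costimulatory genes compared, 0 were called higher and 2 lower, beside 2.26% and 2.13% of all genes, with a median of -0.14. Clec4e, which encodes the glycolipid receptor Mincle, had 315 in p65 KO, 760 in WT p65 and 3354 in K122R. Fas, the death receptor, had 91.5, 201 and 533. Both had the lowest value in p65 KO and the highest in K122R, with differences of -1.27 (limits -1.46 to -1.08) and -1.12 (limits -1.51 to -0.77). Slamf7 had 540 against 993, a difference of -0.88. Icam1 and Cd40, which are also known p65 targets, had differences of -0.25 and -0.33.

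Of 17 death inhibitors, among them survival genes that p65 is known to drive, 1 was called higher and 0 lower, near the 2.26% and 2.13% of all genes, with a median of -0.01. Birc3, an inhibitor of apoptosis, had 5122 in p65 KO and 5214 in WT p65, and Bcl2a1b, a BCL2 family member whose reads may be shared with its near-identical copies, had 3598 and 3334. The 1 called was Ier3, an immediate early gene, with 3424, 1596 and 3214 in p65 KO, WT p65 and K122R, a difference of 1.10 (limits 1.02 to 1.19). Of 18 death effectors 0 were called, the median was -0.14, and Nlrp3, the inflammasome sensor, had 3150 against 4279, a difference of -0.44.

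LPS also acts through TRIF and IRF3 to produce type I interferon, which induces antiviral genes through STAT factors. Of the 30 interferon-stimulated genes listed, 0 were called, near the 2.26% and 2.13% of all genes called higher and lower. Their median was -0.01, and differences ran from -0.50 to 0.25. Rsad2, which encodes viperin, was the lowest, with 49557 in p65 KO, 70207 in WT p65 and 121229 in K122R. Ifit1 had 13380 against 12585 and Isg15 had 6796 against 6205, a difference of 0.13. Of 15 interferon regulatory factors and receptors, 0 were called and the median was 0.18, with Irf4 lowest at -0.49 and Irf3 highest at 0.34.

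AP-1 and the immediate early genes, which LPS drives through MAP kinases, had mostly higher values in p65 KO. Of 20 compared, 17 were above WT p65. At 1.2-fold 10 passed upward and 0 downward, beside 19.3% and 19.4% of all genes. The median was 0.28, beside 0.26 for ribosomal protein genes. At 2-fold 1 was called higher and 0 lower, near the 2.26% and 2.13% of all genes. Egr1, a zinc finger factor, had 483 in p65 KO, 216 in WT p65 and 1400 in K122R, a difference of 1.16. Atf3, a repressor of LPS genes, had 4731, 2492 and 7252, a difference of 0.92. Dusp4, a MAP kinase phosphatase, had 913, 482 and 1447, also 0.92. In all 3 WT p65 was the lowest library.

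Zmynd8, the chromatin reader that the study connects with p65, had 1652 in p65 KO, 1795 in WT p65 and 1091 in K122R, a difference of -0.12. It and the 12 chromatin genes listed with it, not all of which the study ties to ZMYND8, were all below WT p65, by little. Of the 13, 0 were called, near the 2.26% and 2.13% of all genes called higher and lower, and the median was -0.12. Ep300, an acetyltransferase gene, was the lowest at -0.41 with 1773 against 2352. Kdm1a, which encodes LSD1, had 1607 against 1748.

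Of the lists with at least 5 genes compared, MHC class II had the highest median. MHC class II presents peptides to CD4 T cells and is controlled by the coactivator CIITA. Of 5 members compared, 3 were called higher and 0 lower, beside 2.26% and 2.13% of all genes, and the median was 1.23. H2-Aa had 208 in p65 KO, 78.6 in WT p65 and 239 in K122R, a difference of 1.39 (limits 1.02 to 1.79). H2-Eb1 had 149, 59 and 210, a difference of 1.32, and H2-Ab1 had 59, 24.6 and 78.5, a difference of 1.23. Cd74, the invariant chain, had 7346, 4143 and 9704, a difference of 0.83. These 4 were lowest in WT p65 and highest in K122R. The fifth member, H2-DMa, which encodes a chain of the peptide-loading factor, had 54.9, 61 and 81.5, a difference of -0.15 (limits -0.70 to 0.40). Ciita had 10 reads in p65 KO and 2 in WT p65, too few for the filter. The class I genes had smaller positive differences: 0 of 12 were called and the median was 0.24.

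Genes of the osteoclast-like program, which Raw264.7 cells can enter, had a median of 0.62, and 1 of 7 was called higher and 0 lower, beside 2.26% and 2.13% of all genes. Dcstamp, a fusion receptor, had 710 in p65 KO, 381 in WT p65 and 1435 in K122R, a difference of 0.89. Car2, a carbonic anhydrase, had 4503, 2581 and 4804, a difference of 0.80. Nfatc1, a transcription factor gene, had 3376, 3615 and 2062, a difference of -0.10, and Tnfrsf11a had 1323, 1306 and 1397, a difference of 0.02. Ctsk, Calcr and Itgb3 had too few reads for the filter. The called member, the proton pump subunit Atp6v0d2, rested on 37 and 7 reads, with limits of 1.27 to 3.86.

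Metabolic lists held 0 called genes, beside 2.26% of all genes called higher and 2.13% lower. Glycolysis had a median of 0.22 over 17 genes, 16 of them above WT p65, with Hk1, the hexokinase, at 1721 against 1050 and Pfkfb3, a regulator of the pathway, as the 1 member below it at 3372 against 4486. Sterol synthesis had a median of -0.18, with all 12 members below WT p65. Cholesterol efflux and LXR genes had a median of 0.27 over 9 genes, NRF2 targets 0.14 over 11, and lysosomal genes 0.12 over 15. Cell cycle genes had a median of -0.22, with 18 of 24 below WT p65 and 0 called. Mki67, the proliferation marker, had 2780 in p65 KO, 4202 in WT p65 and 3534 in K122R, a difference of -0.60, and Cdkn1a, the p21 inhibitor of the cell cycle, had 3959, 2339 and 5959, a difference of 0.76. The part of these cell cycle differences in the other results was not tested.

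Identity markers were those of macrophages in both libraries. Of 15 macrophage markers 13 passed the filter and 0 were called, near the 2.26% and 2.13% of all genes called higher and lower. The median was 0.11. Spi1, which encodes PU.1, had 7821 in p65 KO and 6903 in WT p65, and Lyz2, the myeloid lysozyme, had 4397 and 4299. Cebpa, a myeloid factor, had 275 against 138, a difference of 0.99. That is under the 2-fold rule by less than the 0.03 by which TMM raised the median difference. Of the markers of other cell types in the table, 0 of 4 T cell, 0 of 3 neutrophil and 0 of 2 epithelial genes passed the filter, their summed values were at most 5.09 in either library, and Cd4, a defining marker, had 0 reads in p65 KO and 3 in WT p65. The B cell factor gene Pax5 had 80 and 124 reads, and the dendritic cell gene Xcr1 had 222 and 146, whereas Cd79a was at 0 and 4 reads. Fibroblast markers summed to 187 and 139. Of 12 housekeeping genes 0 were called, the median was 0.12, and Actb had 91564 against 82720.

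**Figure D3:**
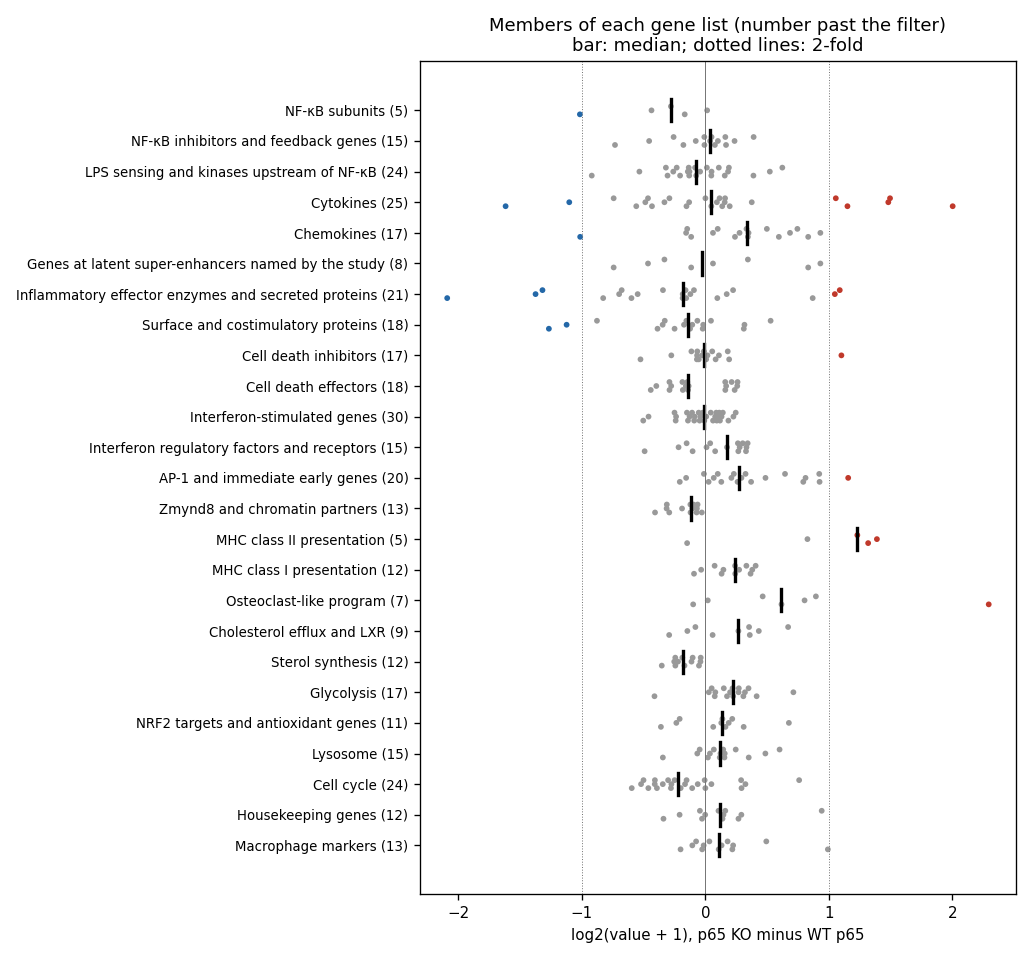
Each point is the log2 difference, p65 KO minus WT p65, of 1 gene past the filter in the list named at the left; black bars are list medians, dotted lines mark 2-fold, red points are at least 2-fold higher and blue points at least 2-fold lower. MHC class II lies farthest to the right with a median of 1.23, interferon-stimulated genes lie within -0.50 to 0.25, and cytokines lie on both sides of 0, with Csf3 the lowest of them at -1.62.

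A broader list of LPS genes came from primary cells. In wild-type bone marrow-derived macrophages (BMDMs), with 1 library untreated and 1 treated with LPS, 539 genes were higher after LPS by at least 2 on the log2(CPM + 1) scale, and 398 of them passed the filter in Raw264.7 cells. In p65 KO 24 of the 398 were called lower (6.03%) and 9 higher (2.26%), beside 2.13% and 2.26% of all genes compared, and the median was -0.06. The genes with the largest rise in BMDMs gave the largest share of lower calls. Of 99 genes with a rise of at least 4, 11 were called lower (11.1%) and 1 higher (1.01%), and the median was -0.19. Of 488 genes with a rise of at least 1 and under 2, 6 were called lower (1.23%) and 14 higher (2.87%), with a median of 0.04. Genes that changed by less than 1 had 0.336% lower and 1.05% higher. The median read value was 282 in the first of these sets, 570 in the second and 535 in the third. Of the 329 LPS-induced genes averaging at least 50, 15 were called lower (4.56%) and 6 higher (1.82%), beside 0.54% and 0.805% of all genes at that level. The BMDM libraries share no sample with the Raw264.7 comparison. The study states an LPS dose and time for BMDMs, but whether the Raw264.7 cells had the same is not known.

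**Figure D4:**
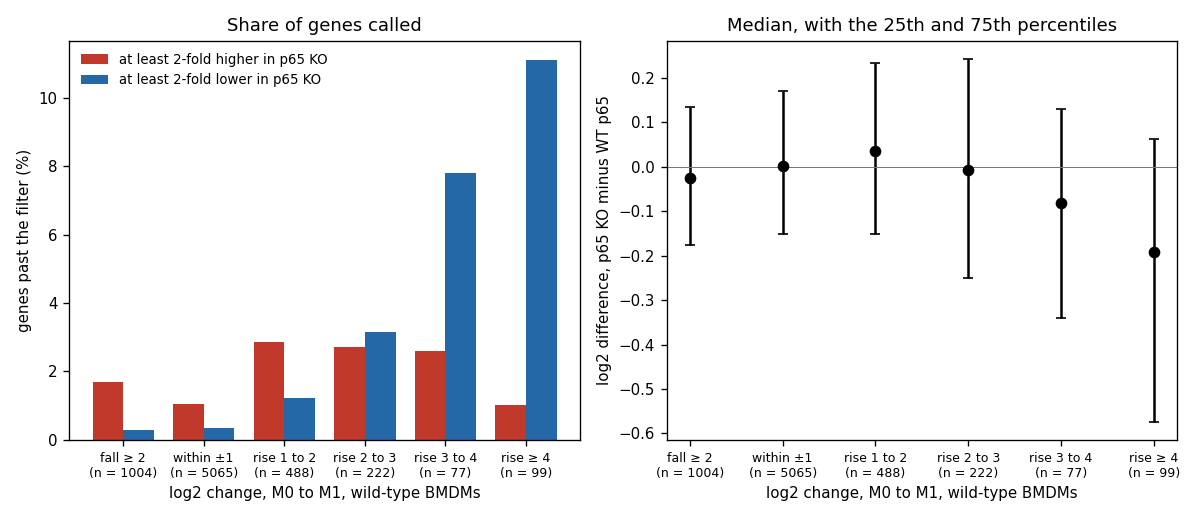
Genes past the filter in Raw264.7 cells, grouped on the x axis by their log2 change from untreated to LPS-treated wild-type BMDMs; the left panel gives the percent at least 2-fold higher (red) or lower (blue) in p65 KO, and the right panel the median log2 difference with the 25th and 75th percentiles. Genes that fell by 1 to 2 are not drawn. The share of lower calls is 0.336% where BMDMs changed by less than 1 and 11.1% where they rose by at least 4, and the median there is -0.19.

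Beside Il6, Saa3, Clec4e and Fas, the LPS-induced genes called lower included Timp1, an inhibitor of metalloproteinases, with 43.7 in p65 KO, 132 in WT p65 and 462 in K122R, a difference of -1.57. Il33, an alarmin of the IL-1 family, had 2917, 6555 and 6452, a difference of -1.17 (limits -1.23 to -1.10). Iigp1, an interferon-induced GTPase, had 587, 1313 and 1619, a difference of -1.16. For these last 2, K122R was near WT p65 and p65 KO alone was low. Dst, which encodes the cytoskeletal linker dystonin, behaved otherwise, with 7404, 16574 and 6652, so that WT p65 was above both. The 9 LPS-induced genes called higher included Il10, Il1rn, Ier3, Tnfsf15 and H2-Ab1 above, and Gadd45g, a stress gene, with 241 against 108.

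The 15 lowest of the called genes averaging at least 50 began with 3 genes whose reads were nearly all from WT p65. The pseudogene Gm6723 had 0 reads in p65 KO, 103 in WT p65 and 0 in K122R, so that it was at least 33.2-fold lower against a floor of 3 reads in p65 KO. Lin28b, which encodes a repressor of let-7 processing, had 2, 206 and 1 reads, a ratio of p65 KO to WT p65 with log2 limits of -9.69 to -4.77. Has1, a hyaluronan synthase, had 12.2 in p65 KO, 159 in WT p65 and 12.2 in K122R, a difference of -3.60. In these 3 genes K122R sat with p65 KO. Itgal, the integrin chain of LFA-1, had 411, 1174 and 1013, a difference of -1.51, and here K122R sat with WT p65, as it did for the GTPase genes F830016B08Rik and Gm4951 with differences of -2.53 and -1.47. The remaining lowest genes were Saa3, Csf3 and Timp1 above, the serpin Serpina3f, the titin gene Ttn, the fatty acid elongase Elovl4, and Gm19410, Gm41236 and BC147527, with differences of -2.18 to -1.50.

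The 15 highest genes were led by Tnfsf8, the ligand of CD30, with 286 in p65 KO, 15.7 in WT p65 and 51 in K122R, a difference of 4.10 (limits 3.46 to 5.01). LOC105244034 followed with 337, 31.5 and 20.4, a difference of 3.38. For Tnfsf8 K122R was also above WT p65, although well below p65 KO, whereas for LOC105244034 it was below WT p65. Layn, a hyaluronan receptor, had 119, 15.7 and 76.5, a difference of 2.84. Spink5, a protease inhibitor, had 280, 41.3 and 502, a difference of 2.73. Nrp1, a semaphorin receptor, had 133, 30.5 and 327, a difference of 2.09. The intermediate filament gene Nes and the ETS factor gene Etv1 had differences of 2.29 and 2.16. Tnfsf15, Serpinb1c, Psd4, the lysosomal channel gene Mcoln2, Gm2225, the phosphatase gene Ptpn5, Dhrs9 and Cox6a2 completed the 15, with Cox6a2 the lowest of them at 1.65.

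The promoters of 4 genes are shown because NF-κB binds a short DNA motif and the genes that carry it next to the start site did not share 1 pattern. Each is the stretch of 170 bases that ends at the base before the RefSeq start (GRCm38.p6), written on the strand of the gene, with matches to the NF-κB consensus motif, searched on both strands, in capitals. Il6 is at chr5:30012944-30013113 on the plus strand, Tnfaip3 at chr10:19015411-19015580, Nfkbia at chr12:55492648-55492817 and Cxcl10 at chr5:92348890-92349059, all 3 on the minus strand.
Il6: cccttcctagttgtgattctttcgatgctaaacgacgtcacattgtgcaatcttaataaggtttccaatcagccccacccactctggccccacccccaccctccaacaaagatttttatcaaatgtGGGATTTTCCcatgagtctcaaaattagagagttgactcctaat
Tnfaip3: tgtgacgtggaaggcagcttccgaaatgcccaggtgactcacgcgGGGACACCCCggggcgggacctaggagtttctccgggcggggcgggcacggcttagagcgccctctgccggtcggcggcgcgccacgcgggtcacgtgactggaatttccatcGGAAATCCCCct
Nfkbia: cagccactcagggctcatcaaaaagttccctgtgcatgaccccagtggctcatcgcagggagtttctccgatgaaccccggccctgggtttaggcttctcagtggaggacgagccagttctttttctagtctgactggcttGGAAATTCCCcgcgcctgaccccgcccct
Cxcl10: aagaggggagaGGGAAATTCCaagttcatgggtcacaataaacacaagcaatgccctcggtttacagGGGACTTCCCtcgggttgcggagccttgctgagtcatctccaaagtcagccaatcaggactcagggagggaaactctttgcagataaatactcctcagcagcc
Il6 has 1 match and Tnfaip3, Nfkbia and Cxcl10 have 2, 1 and 2 in this window. Their differences, p65 KO minus WT p65, were -1.10, -0.73, 0.05 and -0.11 in the same order. Of these 4 only Il6 was called. The 4 were chosen after their values were seen. In the lists above, from the NF-κB subunits to the death inhibitors, 28 members compared had a match in a promoter of 300 bases. Of these, 1 was called lower (Il6) and 1 higher (Ier3, 1.10), beside 2.13% and 2.26% of all genes. Of the 32851 promoters of 300 bases in the RefSeq table, 4.51% hold a match, and a match in sequence does not show that p65 binds there.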

How the data were processed

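Raw264.7 RNA was sequenced in 1 library a line, and the table that the authors deposited gives each gene a signal value in both libraries, beside fold changes and p-values that were not used. Every signal value is a whole number of reads times a constant of the library (100% of values, within 0.001 of a read), so reads were recovered. For BMDMs, 3 biological replicates were mixed per library, and the authors deposited estimated counts per gene (TopHat, mm10), which were rounded and scaled to CPM. The aligner and counter of the Raw264.7 tables are not given in the sources used here; the submitters' processing notes name Bowtie 0.12.2 and CASAVA 1.4, with no role.

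No test was set, since there is 1 library a side. Differences were taken on log2(value + 1) among genes averaging at least 10 and called at 2-fold. The exact binomial test on the recovered reads, with Benjamini-Hochberg adjustment at 0.05, called 1985 genes higher and 2376 lower; it compares 2 libraries, not the lines. TMM and an exact test at an assumed biological coefficient of variation of 0.2 or 0.4 came from edgeR 4.0.16 in R 4.3.3, and the steps were tested on simulated reads. Named genes are Rela, list members, and the 15 highest and 15 lowest called genes averaging at least 50; genes of the LPS-induced list were named after their values were seen. The members and the 31 gene lists were chosen with earlier results of these data known. Bone marrow genes were taken as LPS-induced at a log2 rise of at least 2 and a mean of at least 50 counts. The planned comparison of motif shares is void, because a promoter was found for only 70.4% of the genes compared, 56.6% of those called higher and 47.6% of those called lower. In other tables, 2 columns of values with no label were left aside, and 42 samples were not analysed here.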

Additional observations from a re-analysis of the deposited data

How the results depend on the processing

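The counts of called genes depended on the rule. At 1.2-fold, 2597 genes were higher and 2615 lower in p65 KO. Without the filter on low values the counts were 3061 and 1801, and at a mean value of at least 50 they were 85 and 57. With library totals, log2(CPM + 1) gave 99 and 67, where the added 1 weighs more because CPM values are smaller than the deposited ones. At an assumed biological coefficient of variation of 0.2, the edgeR exact test called 15 higher and 10 lower, and at 0.4 it called 0 higher and 2 lower. A pseudocount of 0.1, TMM, and the exact binomial test added to the fold rule left both counts within 1.5 times. TMM raised the median difference by 0.03 and the share of higher genes among calls from 51.5% to 55.4%. For LPS-induced genes, a rise of at least 1 gave 23 higher (2.60%) and 30 lower (3.39%), so that the gap between lower and higher calls seen at a rise of 2 was smaller. Chosen after seeing the data, a mean value of at least 50 gave 15 lower and TMM gave 24 lower and 9 higher. Rela stayed within its limits under a pseudocount of 0.1, library totals and TMM, but under TMM its difference of -0.99 no longer met the 2-fold rule, as for Ccl17. Of 1221 values recomputed for 407 other genes, 22 left their counting limits. Under TMM 14 changed sign, all of them genes within 0.03 of 0, and 0 called genes did. No paired analysis was possible because each line has 1 library, and no replicate could be left out. Differences of low genes are limited by depth.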

Other observations

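Gene families were also read by symbol, chosen after the values were seen, and are given as values; over all genes compared, 2.26% were called higher and 2.13% lower. Of 19 GTPases of the GBP and IRG families, which act against intracellular microbes, 17 were below WT p65 in p65 KO, 3 were called lower and 0 higher, and the median log2 difference was -0.26. Tgtp2 had 167 in p65 KO, 300 in WT p65 and 621 in K122R, and may share reads with its near copy Tgtp1, at 35.6, 69.8 and 45.9. Of 11 PYHIN proteins, a family that holds the DNA sensor gene Aim2, 2 were called lower and 0 higher, and the median was -0.30, with Pydc3 at 197 in p65 KO and 514 in WT p65. All 6 MS4A membrane protein genes compared were below WT p65, with a median of -0.61, and Ms4a4c was called lower, at 165 in p65 KO, 345 in WT p65 and 603 in K122R.

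Receptors and ligands did not move as 1 block. Il33 was lower in p65 KO, while its receptor gene Il1rl1 had 1606 in p65 KO, 745 in WT p65 and 369 in K122R, a difference of 1.11. Of 12 chemokine receptor genes 3 were called higher and 1 lower, beside 2.26% and 2.13% of all genes. Ccr1, a receptor for CCL3 and CCL5, had 174, 64.9 and 165, and Cxcr3, the receptor for CXCL10, had 190, 81.6 and 208, so both were lowest in WT p65. Ccr9, the receptor for CCL25, had 15.3, 38.3 and 56.1. Of 16 integrin genes 1 was called higher and 2 lower. Itgal and Itga2b, the latter with 8 reads in p65 KO and 20 in WT p65, were lower, Itgb7 was higher, at 409 against 182, and Itgam and Itgb2 had differences of -0.03 and 0.10. Of 18 TNF receptor genes 0 were called higher and 2 lower, with a median of -0.03. Tnfrsf10b, a death receptor gene and 1 of those 2, had 58, 144 and 58.1, a difference of -1.29. Of 10 TNF ligand genes 3 were called higher and 0 lower, with a median of 0.21. The metal-binding Mt2 had 2536, 1009 and 4073, a difference of 1.33, and Mt1 had 1414, 747 and 1376, a difference of 0.92.

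Of 79 cytosolic ribosomal protein genes, 77 were above WT p65 in p65 KO, with a median of 0.26 and 0 called. Genes averaging at least 50 were cut into 4 bins by the length listed with the BMDM counts, 56 to 386 in the shortest bin. The median difference was 0.0026 in the shortest bin and -0.03 in the longest. What this length measures was not checked, and an effect of transcript length was not tested.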
